A study of Homo sapiens with 7 samples.

Results

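The genes that encode the cohesin complex and its closest cofactors were examined for Rb binding at their promoters. There were 10 of them among 19955 protein-coding genes of chromosomes 1 to 22 and X. They were chosen by name, with earlier results of these data known: SMC1A, SMC3, RAD21, STAG1, STAG2, NIPBL, WAPL, PDS5A, PDS5B and ESCO2. A gene was counted as bound in a library when at least 1 bp of a called peak fell in the window that runs from 2000 bp before to 500 bp past a transcription start site (TSS) listed for it in GENCODE, whichever the transcript, and peaks elsewhere in the gene were collected as well.

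Rb was mapped by CUT&RUN, in which an antibody guides a nuclease to a chromatin protein so that the DNA around it is cut free and sequenced. All libraries came from the breast cancer cell line ZR-75-1, which expresses the oestrogen receptor. Cells were given 500 nM palbociclib, an inhibitor of the kinases CDK4 and CDK6, or DMSO, its solvent, for 4 days. Parental cells contributed 2 Rb libraries per treatment, described in the study's methods as separate biological replicates, and RB1 KO cells, in which CRISPR editing had disrupted the gene encoding Rb and which had been grown out from sorted single cells, contributed 1 Rb library per treatment. A last library was made from palbociclib-treated parental cells with a control antibody, IgG2a, and its list is a background list. The data are peak lists, so they hold no expression level with which the identity of the line could be checked.

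Cohesin is a ring built from SMC1A, SMC3 and RAD21, to which either STAG1 or STAG2 binds. It extrudes loops of DNA during interphase and holds sister chromatids together from S phase until anaphase. NIPBL loads the ring and drives extrusion, WAPL together with PDS5A or PDS5B opens and releases it, and ESCO2 acetylates SMC3 in S phase so that the ring stays closed on replicated DNA. Rb, when it is not phosphorylated by cyclin-dependent kinases, binds E2F transcription factors at promoters of genes for the cell cycle, and CDK4/6 inhibition keeps it in that state.

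The parental lists held 996 and 816 peaks with DMSO and 8399 and 8256 with palbociclib. The RB1 KO lists held 65 with DMSO and 51 with palbociclib, and the IgG2a list held 2648. On chromosomes 1 to 22 and X, where the genes were scored, these lists held only 4, 5 and 1724 peaks, in that order. The deposited lists do not give library depth. The lowest local background of the parental lists, recovered from the peak values in fragments, lay between 0.465 and 0.571, with the palbociclib lists at 0.516 and 0.549 inside the DMSO range, but this value depends on fragment length as well as on fragment number.

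With palbociclib, Rb peaks were found at nearly all of the cohesin promoters, whereas DMSO cells had them at 3. DMSO replicate 1 and DMSO replicate 2 each had peaks at 3 of the 10 promoters, and both lists named SMC1A, SMC3 and STAG1. Palbociclib replicate 1 had peaks at 9 and replicate 2 at 10, the difference being NIPBL. The mean was 9.5 ± 0.707 (SD, n = 2) with palbociclib and 3 ± 0 (SD, n = 2) with DMSO. The difference of 6.5 promoters was larger than the spread between replicates, and the exact two-sided permutation test gave p = 0.333, the smallest value that 2 against 2 libraries allow.

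These counts stand beside a general increase. Of all protein-coding genes, 34.9% had a promoter peak in both palbociclib lists and 2.91% in both DMSO lists, against 9 and 3 of the 10 cohesin genes. RAD21, STAG2, WAPL, PDS5A, PDS5B and ESCO2, 6 of the 10, had a peak in both palbociclib lists and in neither DMSO list, as did 28.4% of all protein-coding genes. Neither RB1 KO list had a peak at any of the 10 promoters, but only 0.01% of all protein-coding genes had one in either RB1 KO list. The IgG2a list also had none at the 10 genes, where 1.95% of all protein-coding genes had one. When the 4 parental lists were cut to the same length, the 816 peaks with the highest −log10 p in each, all 4 lists had peaks at 3 cohesin promoters: the DMSO lists kept SMC1A, SMC3 and STAG1, palbociclib replicate 1 had SMC1A, STAG1 and PDS5A, and replicate 2 had SMC3, STAG1 and ESCO2. STAG1 was the only one in both palbociclib lists at that length. Of all protein-coding genes, 3.82% were then in both palbociclib lists and 2.67% in both DMSO lists. The cut itself brings the totals of the lists together, so equal counts at this length do not show that binding was alike.

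**Figure D1:**
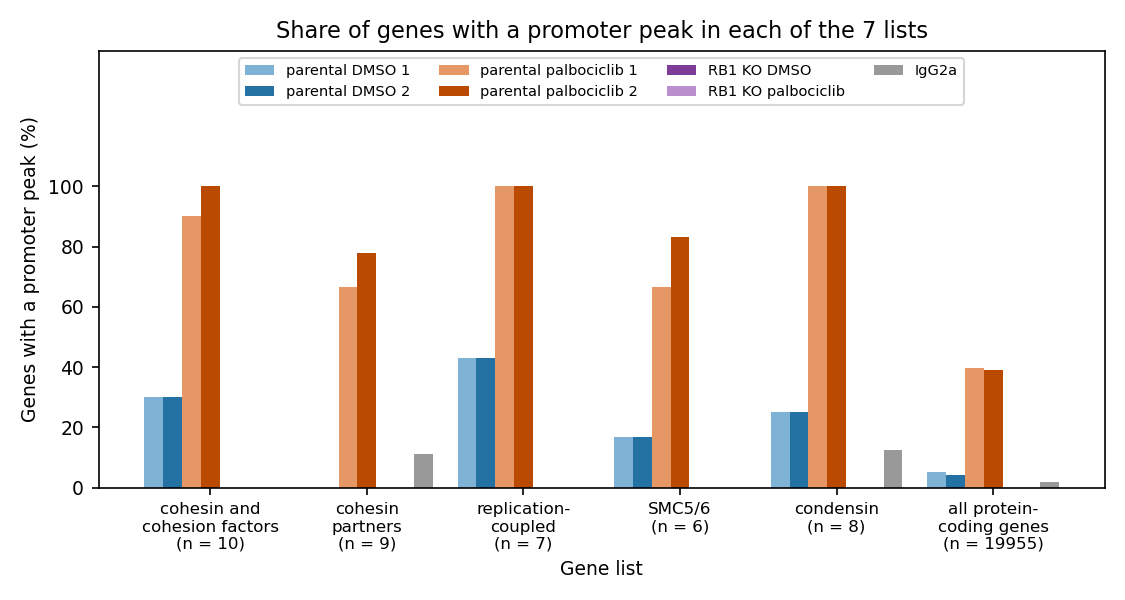
Share of genes with a promoter peak (y axis, percent) in each of the 7 lists, for the 10 cohesin and cohesion factor genes, 4 related gene lists and all protein-coding genes; each bar is one library and a missing bar is 0 or, for all genes in the RB1 KO lists, too low to see. The palbociclib bars are the tallest in every list, at 9 and 10 of 10 for the cohesin genes and 39.7% and 39.0% for all genes.

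The DNA at the peaks is shown for 6 of the genes. These are the 3 bound in DMSO, PDS5A as the strongest of those bound only with palbociclib, and STAG2 and NIPBL as weakly bound ones. PDS5B, the lowest, is not printed. The sequences are RefSeq bases immediately upstream of a RefSeq start (GRCh38.p14), without exons of protein-coding transcripts. SMC1A is the exception: its upstream bases are exonic in other transcripts, so the part of intron 1 around the summit of palbociclib replicate 1 was read from hg38. RefSeq promoter records were matched for 8 of the 10 genes. Each sequence runs 5′ to 3′ on the gene's strand, and capitals mark exact matches, on either strand, to the E2F octamers TTTGGCGC, TTTCCCGC, TTTGCCGC or TTTCGCGC, to the NFY box CCAAT or to the ETS site CCGGAAGT.
SMC1A, chrX:53422279-53422491 (minus strand): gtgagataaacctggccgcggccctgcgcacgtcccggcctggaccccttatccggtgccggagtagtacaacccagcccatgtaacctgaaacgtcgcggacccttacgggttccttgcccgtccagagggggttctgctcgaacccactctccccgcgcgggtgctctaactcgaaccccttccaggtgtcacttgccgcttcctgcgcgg
SMC3, chr10:110567445-110567683 (plus strand): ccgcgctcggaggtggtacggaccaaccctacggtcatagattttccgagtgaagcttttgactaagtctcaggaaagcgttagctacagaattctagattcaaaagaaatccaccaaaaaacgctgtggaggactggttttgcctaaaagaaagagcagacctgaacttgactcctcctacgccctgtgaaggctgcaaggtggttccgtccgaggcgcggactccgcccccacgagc
STAG1, chr3:136752404-136752628 (minus strand): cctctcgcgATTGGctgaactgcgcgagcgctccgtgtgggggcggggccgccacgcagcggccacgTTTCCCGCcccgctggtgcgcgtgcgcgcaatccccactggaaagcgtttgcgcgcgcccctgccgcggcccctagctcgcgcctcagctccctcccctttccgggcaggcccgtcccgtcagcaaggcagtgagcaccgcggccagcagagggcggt
STAG2, chrX:123961857-123962032 (plus strand): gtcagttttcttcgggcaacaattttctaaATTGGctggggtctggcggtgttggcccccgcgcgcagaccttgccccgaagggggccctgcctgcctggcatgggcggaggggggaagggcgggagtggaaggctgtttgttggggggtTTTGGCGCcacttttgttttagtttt
NIPBL, chr5:36876519-36876768 (plus strand): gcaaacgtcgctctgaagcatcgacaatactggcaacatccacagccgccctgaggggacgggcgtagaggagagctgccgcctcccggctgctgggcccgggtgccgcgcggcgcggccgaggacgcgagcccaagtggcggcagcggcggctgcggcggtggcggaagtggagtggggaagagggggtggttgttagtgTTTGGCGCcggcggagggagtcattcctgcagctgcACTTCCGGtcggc
PDS5A, chr4:39977957-39978161 (minus strand): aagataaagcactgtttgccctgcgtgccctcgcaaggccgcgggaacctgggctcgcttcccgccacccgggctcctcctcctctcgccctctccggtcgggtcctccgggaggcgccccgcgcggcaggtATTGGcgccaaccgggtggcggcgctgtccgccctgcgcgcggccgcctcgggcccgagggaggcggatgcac

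SMC1A and SMC3, the ATPase arms of the ring, were bound in all 4 parental lists. Peak height is given as fold enrichment, which the authors computed at each summit by dividing the piled-up fragments by the local background. The SMC1A peak reached 7.097 and 6.38 in the DMSO replicates and 17.9 and 15.6 in the palbociclib replicates. The groups did not overlap, as was so for 100% of the 580 genes called in all 4 parental lists, and the ratio of the means was 2.49. The called width was also larger with palbociclib, at 1008 and 1051 bp against 608 and 546 bp with DMSO. Its summits lay in intron 1, from 250 to 510 bp downstream of the canonical TSS. That TSS is 36 bp from the start of RIBC1 on the opposite strand, so the 2 genes share a promoter and the peak cannot be assigned to one of them.

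At SMC3 the DMSO replicates gave fold enrichments of 8.06 and 9.07, and the palbociclib replicates 19.3 and 26.4, a ratio of means of 2.67. Here again both palbociclib values exceeded both DMSO values, as at all 580 genes called in the 4 parental lists. The width was 485 and 285 bp with DMSO and 1397 and 1095 bp with palbociclib, and every summit lay within 156 bp of the canonical TSS at chr10:110567695. The 239 upstream bases printed above held none of the marked motifs, but they ended upstream of both palbociclib summits. SMC3 ranked higher among the DMSO promoter peaks than the other cohesin genes, at the 80.4 and 83.7 percentile of fold enrichment in the respective lists.

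RAD21, the kleisin subunit that closes the ring and is cut by separase at anaphase, had no DMSO peak. With palbociclib its fold enrichment was 8.97 and 9.30, or 9.14 ± 0.238 (SD, n = 2). This was near the median of all genes bound in both palbociclib lists, 8.36, although its peaks were wide, at 745 and 773 bp. The summits of the replicates were 253 bp apart, one in the UTR of exon 1 and one in intron 1. MIR3610 and the antisense RNA RAD21-AS1 start 24 bp upstream and 352 bp downstream of the RAD21 TSS, and both palbociclib peaks covered all 3 starts.

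The paralogues STAG1 and STAG2, alternative subunits of the ring that give cohesin different residence on chromatin, differed widely in peak height with palbociclib. The STAG1 peak stood at a fold enrichment of 6.51 and 7.46 in DMSO cells, and of 44.1 and 36.7 after palbociclib, a ratio of means of 5.78. STAG2 had no DMSO peak, and its fold enrichment with palbociclib was 6.60 and 7.101. The 2 STAG1 values with palbociclib were thus above both STAG2 values, and in pileup 92 and 93 fragments stood at the STAG1 summit (exact Poisson 95% intervals 74.2 to 113 and 75.1 to 114) against 9 and 10 at the STAG2 summit (4.12 to 17.1 and 4.80 to 18.4). These intervals cover counting error only and not the spread between libraries. They also treat every fragment as independent, although the authors kept duplicate fragments, so they may be too narrow.

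Of the 3 genes bound in DMSO, STAG1 was also the one whose peak differed most in width. In each DMSO list it had a pair of narrow peaks. The upstream ones were 266 and 164 bp wide with summits 183 and 300 bp upstream of the canonical TSS, and they overlapped between the replicates. The downstream ones were 170 and 174 bp wide with summits 76 and 500 bp downstream, and they did not overlap each other. With palbociclib a single peak of 1641 and 1871 bp covered the whole stretch, its summits 253 and 244 bp upstream and only 9 bp apart. The E2F octamer in the STAG1 sequence, at chr3:136752554-136752561, was centred 3.5 bp from the upstream DMSO summit of replicate 1, 120.5 bp from that of replicate 2, and 73.5 and 64.5 bp from the palbociclib summits. It lay inside the upstream DMSO peak of replicate 1 and both palbociclib peaks, but outside both DMSO peaks of replicate 2. The NFY box was centred 14 and 5 bp from the palbociclib summits. The divergent transcript STAG1-DT starts 252 bp upstream of STAG1, close to the same summits.

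At STAG2 the peaks were 250 and 381 bp wide, in intron 1 of the canonical transcript, 158 and 234 bp downstream of its TSS. The local background was low there, 0.516 and 0.549 fragments, which is the minimum of each list, so that 9 and 10 fragments gave these fold enrichments. In the DMSO lists, peaks at a like background (within 20%) were called from 6 fragments upwards. An E2F octamer lay 51 bp before a downstream RefSeq start, at chrX:123962007-123962014, with its centre 146.5 and 70.5 bp from the summits.

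**Figure D2:**
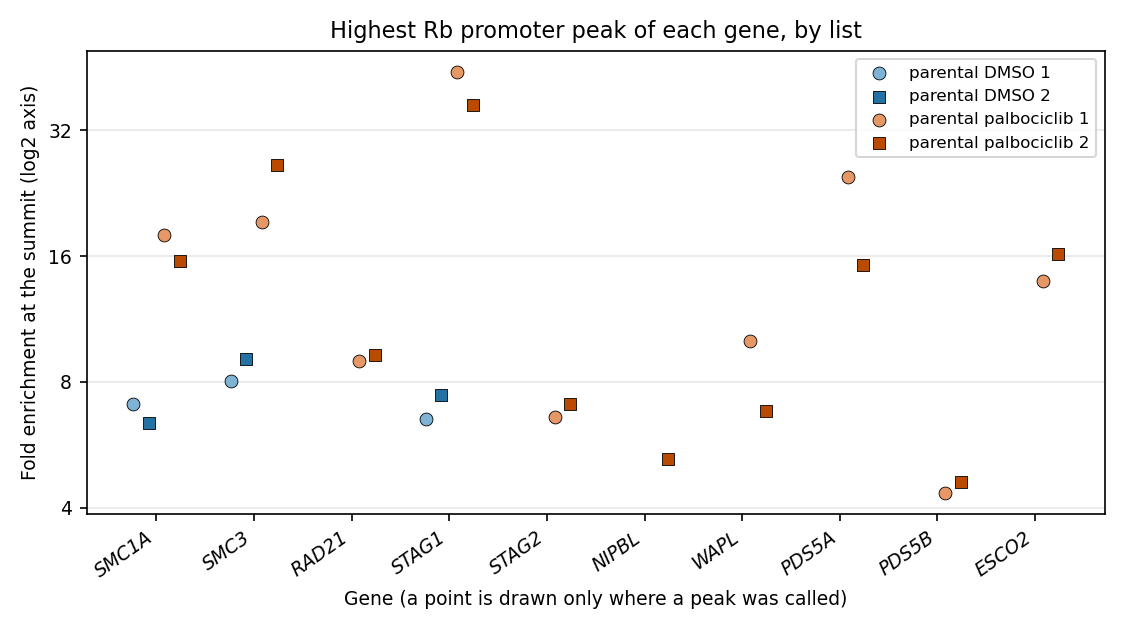
Fold enrichment at the summit of the highest promoter peak (y axis, log2 scale) for each of the 10 genes (x axis); each point is one parental library, DMSO in blue and palbociclib in orange, and no point is drawn where no peak was called. At SMC1A, SMC3 and STAG1 both orange points lie above both blue points, as the values do at all 580 genes called in the 4 lists. STAG1 with palbociclib is the highest, at 44.1 and 36.7.

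Over the 3 genes bound in all 4 parental lists, the mean log2 fold enrichment per library was 2.85 and 2.92 with DMSO and 4.63 in both palbociclib libraries. The difference of 1.75 on the log2 scale, 3.36-fold, had an exact two-sided permutation p = 0.333, again the smallest possible. Mean widths rose from 453 and 332 bp to 1349 and 1339 bp, a difference of 951.5 bp with the same exact permutation p = 0.333. Width is not independent of height, because a higher peak crosses the calling threshold over a longer stretch. The median width of all promoter peaks was 269 and 233 bp in the DMSO lists and 483 and 470 bp in the palbociclib lists. The direction was general: in 100% of the 580 genes called in all 4 lists both palbociclib values exceeded both DMSO values. The median ratio over those 580 genes was 3.65 (quartiles 3.08 and 4.38), so the ratio at SMC1A, 2.49, and that at SMC3, 2.67, lay below the lower quartile, and that at STAG1, 5.78, above the upper. By fold enrichment in the 4 lists, the genes most like STAG1 among 556 candidates were IMPA2 (Euclidean distance 0.10 on the log2 scale), TMEM87B (0.29) and DERL2 (0.31).

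NIPBL, the loader, was the only one of the 10 bound in a single parental list. It had 1 peak, in palbociclib replicate 2, of 238 bp and a fold enrichment of 5.24, with 10 fragments at a summit 126 bp upstream of the TSS. Palbociclib replicate 1 had no peak there, although peaks at a like background were called in it from 6 fragments upwards. Its sequence held an E2F octamer at chr5:36876720-36876727 and an ETS site, both outside the called peak. The divergent transcript NIPBL-DT starts 69 bp away. MAU2, the partner of NIPBL in the loader, had a fold enrichment of 10.1 and 12.4 with palbociclib and no DMSO peak.

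WAPL, which releases cohesin from DNA, had a fold enrichment of 10.0 and 6.81 with palbociclib and no DMSO peak. The peak of replicate 1 was 677 bp wide and that of replicate 2 was 365 bp, yet the summits were 27 bp apart, 169 and 142 bp upstream of the TSS and close to the start of WAPL-DT, 153 bp upstream. The upstream 250 bases of WAPL held 2 NFY boxes, and the nearer one was centred 58 and 31 bp from the summits of replicates 1 and 2.

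PDS5A and PDS5B, paralogous HEAT-repeat proteins that act both in cohesin release and in its protection, differed as STAG1 and STAG2 did. PDS5A had a fold enrichment of 24.7 and 15.2 with palbociclib, with 53 and 38 fragments at the summits and widths of 1028 and 852 bp. PDS5B had 4.35 and 4.60, with 16 and 18 fragments and widths of 433 and 401 bp. Neither had a DMSO peak. The PDS5B peaks stood on the highest local background among the 10 genes, 2.91 and 3.13 fragments. PDS5B was also the only one of the 10 with a peak outside its promoters: in palbociclib replicate 2, a 227 bp peak in intron 1 at chr13:32587092-32587318, 668 bp downstream of the TSS, with a fold enrichment of 4.95. No other peak of any of the 7 lists lay within the 1658 kb that the 10 genes span, outside their promoters.

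ESCO2, the acetyltransferase of S phase, had a fold enrichment of 14.0 and 16.2 with palbociclib and no DMSO peak. Its peak was narrow for that height, 422 and 413 bp, with 40 and 49 fragments at summits 72 and 84 bp upstream of the canonical TSS. RAD21 had nearly the opposite form, lower but wider. A second, weak peak in palbociclib replicate 2, with a fold enrichment of 3.33, had its summit 2023 bp upstream of that TSS and covered the start of the neighbouring gene CCDC25, which is 1920 bp upstream.

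**Figure D3:**
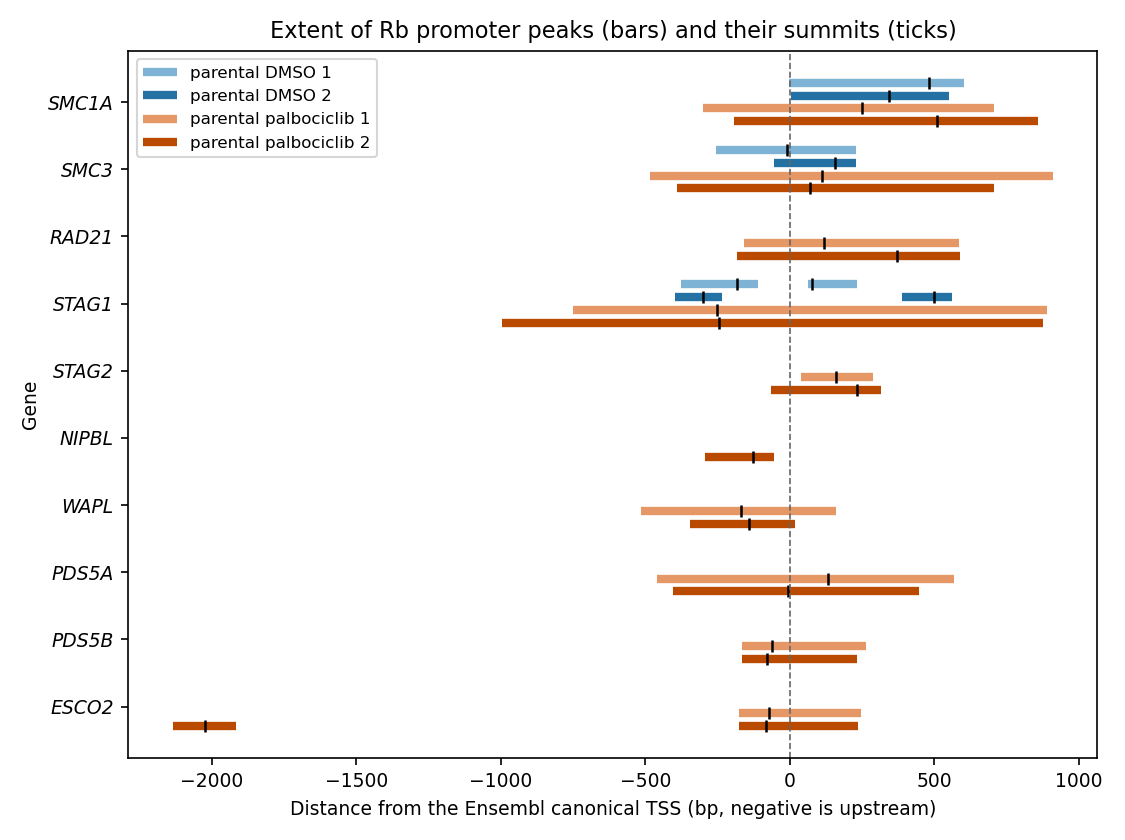
Extent of every promoter peak (bars) and its summit (black tick) relative to the Ensembl canonical TSS (x axis, bp, negative upstream) for the 10 genes (y axis); DMSO libraries are blue and palbociclib libraries orange. STAG1 has a pair of short blue bars per DMSO library and a single long orange bar per palbociclib library.

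Ordered by mean fold enrichment with palbociclib, the 9 genes bound in both lists ran STAG1 (40.4 ± 5.26), SMC3 (22.9 ± 5.05), PDS5A (19.98 ± 6.74), SMC1A (16.8 ± 1.65), ESCO2 (15.1 ± 1.59), RAD21 (9.14 ± 0.238), WAPL (8.41 ± 2.26), STAG2 (6.85 ± 0.356) and PDS5B (4.48 ± 0.179), each as mean ± SD of 2 libraries. Replicate values of neighbours in the order from SMC3 down to ESCO2 overlapped, as did those of RAD21 and WAPL and those of WAPL and STAG2. STAG1 stood above SMC3, ESCO2 above RAD21, and STAG2 above PDS5B, without overlap. The order of STAG2 and PDS5B depends on the measure: in fragments at the summit PDS5B had 16 and 18, and STAG2 9 and 10. The median of the 9 was 15.1, against 8.36 over all 6971 genes bound in both lists. The median percentile among promoter peaks was 85.3 for the 9 genes and 58.0 for all 6971. Related genes bound in both palbociclib lists, read below, also had medians above that of all genes. These were 12.9 for condensin, 12.8 for replication-coupled factors, 13.4 for SMC5/6, 9.01 for other partners and 10.9 for germline subunits. Their median percentiles were 79.6, 79.8, 80.6, 62.4 and 72.2, in that order.

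Height with palbociclib and presence in DMSO went together across all genes, but PDS5A and SMC1A did not follow that order between them. PDS5A, at a mean of 19.98, had no DMSO peak, whereas SMC1A, at 16.8, was called in both DMSO lists. Their palbociclib replicate values overlapped, at 24.7 and 15.2 for PDS5A and 17.9 and 15.6 for SMC1A. Of the 318 other genes within 10% of the height of PDS5A, 33.3% had no DMSO peak, 43.7% had one in a single DMSO list and 22.96% in both. Of the 452 others within 10% of SMC1A, 17.0% had a peak in both DMSO lists and 55.5% in neither. For STAG1 the share with both was 90.2% of 61 genes. For ESCO2 the share with neither was 62.3% of 536 genes, and for RAD21, STAG2, WAPL and PDS5B between 91.3% and 99.7%. Of the 256 others within 10% of SMC3, 41.8% had a peak in both DMSO lists, 34.8% in a single one and 23.4% in neither. STAG1, RAD21, STAG2, WAPL, PDS5B and ESCO2 thus shared their state in DMSO with most genes of like height. The state of SMC3 was the most frequent one at its height, though not that of most genes. SMC1A and PDS5A shared theirs with a minority.

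**Figure D4:**
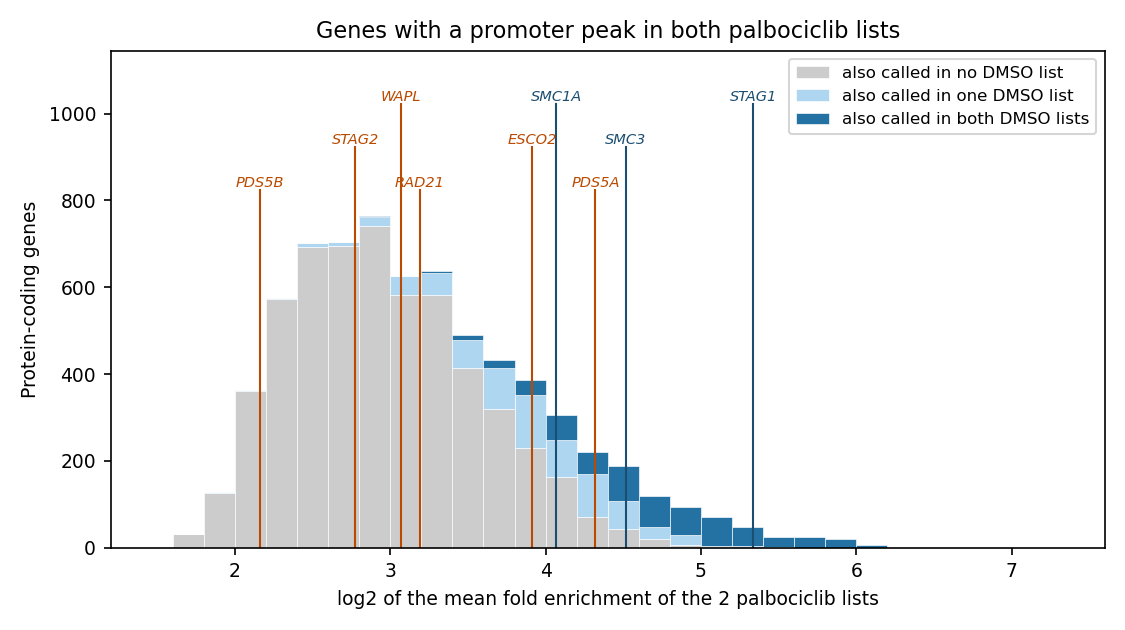
Number of protein-coding genes (y axis) by log2 of the mean fold enrichment of the 2 palbociclib lists (x axis, bins of 0.2), for the 6971 genes with a promoter peak in both; colours give the number of DMSO lists with a peak, and vertical lines mark the 9 cohesin genes, orange where no DMSO list had a peak. The dark blue share of the bars grows towards the right of the plot, where STAG1 lies.

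Absence from a DMSO list is absence of a call, not of Rb. At the local background of each gene with palbociclib, DMSO peaks were called from 8 fragments upwards for RAD21 and PDS5A, from 10 for WAPL and ESCO2, and from 13 (replicate 1) and 12 (replicate 2) for PDS5B. A lower DMSO pileup at such a background would not have appeared in the lists. The palbociclib pileups of PDS5A (53 and 38) and ESCO2 (40 and 49) were well above those limits, and those of PDS5B (16 and 18) were close to them.

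The sequences within 100 bp of the highest palbociclib summit were searched for the motifs above and 4 more on both strands, and set against 5792 distinct summit windows of all genes bound in both palbociclib lists. An E2F octamer lay in the windows of STAG1, STAG2 and NIPBL, 3 of 10, against 5.99% of all windows and 13.2% of the 446 windows of genes also bound in both DMSO lists. NIPBL, bound in a single palbociclib list, is not among the genes that gave the comparison windows. The STAG2 window is that of replicate 2, and its octamer lay outside the replicate 1 peak, 146.5 bp from that summit. The NIPBL octamer lay outside the called peak, and the STAG1 octamer inside both palbociclib peaks. The NFY box lay in 6 of 10, namely SMC1A, STAG1, STAG2, WAPL, PDS5B and ESCO2, against 26.3% of all windows and 37.9% of the 446. The SMC1A stretch printed above held no NFY box, so the one counted lay at least partly outside it. The SP/KLF box GGGCGG lay in 8 of 10, against 70.1%. The CHR element TTTGAA, which the DREAM complex binds in promoters of mitotic genes, lay in PDS5B and ESCO2, against 3.23%. The ETS site, the CRE TGACGTCA and the NRF1 core GCGCATGC were found in none of the 10 windows and in 3.26%, 1.24% and 3.21% of all. Among 34788 distinct RefSeq upstream windows of 250 bases, 2.78% held an E2F octamer, 32.02% an NFY box and 3.41% an ETS site. Exact E2F octamers were thus found at STAG1, the highest of the 10, and at the weakly bound NIPBL and STAG2. None lay in the windows of SMC3 and PDS5A, which were high, nor in those of RAD21, WAPL and PDS5B, which were lower. The windows of the 10 genes were as rich in GC as the others, with a median of 70.4% (61.2% to 78.6%) against 70.6%.

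Related gene lists were read for comparison. Condensin, the complex that compacts mitotic chromosomes, had promoter peaks in both palbociclib lists at 8 of 8 genes, of which NCAPH2 and SMC4 were also in both DMSO lists. Over all protein-coding genes the shares were 34.9% in both palbociclib lists and 2.91% in both DMSO lists. NCAPH2 was the highest, at 39.5 and 31.99 with palbociclib and 12.7 and 11.1 with DMSO, and NCAPD3 the lowest, at 8.51 and 6.81. SMC4, which encodes an ATPase arm of condensin, had 19.8 and 17.4 with palbociclib and 7.0003 and 6.83 with DMSO. An IgG2a peak lay at an internal start of NCAPG2.

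Factors that couple cohesion to the replication fork were bound in both palbociclib lists at 7 of 7 genes, against 34.9% of all protein-coding genes. The helicase gene DDX11 was the highest, at 47.3 and 67.6 with palbociclib and 11.6 and 12.5 with DMSO, and CHTF8 the lowest, at 6.72 and 5.57. TIMELESS and WDHD1 were also in both DMSO lists, where the share over all protein-coding genes was 2.91%. TIMELESS, which travels with the fork, had 34.6 and 38.2 with palbociclib and 16.6 and 14.3 with DMSO, the highest DMSO values of all the genes read here. WDHD1, which links the helicase to polymerase alpha, had 17.8 and 25.8 with palbociclib and 8.27 and 8.87 with DMSO.

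Of 9 other partners of cohesin, 5 had a peak in both palbociclib lists, where the share over all protein-coding genes was 34.9%, and none had one in both DMSO lists. MAU2 was the highest of them and HASPIN, at 5.03 and 4.29, the lowest. SGO1, the protector of centromeric cohesion, had no parental peak. CDCA5, which encodes sororin, the antagonist of WAPL, had 8.25 and 10.1 with palbociclib. It also had an IgG2a peak with a fold enrichment of 4.63, which did not overlap the Rb peaks.

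The SMC5/6 complex, another SMC complex, which acts in DNA repair, was bound in both palbociclib lists at 4 of 6 genes and in both DMSO lists at none. The shares over all protein-coding genes were 34.9% and 2.91%. SMC5 was the highest, at 16.8 and 18.6 with palbociclib, with a DMSO peak of 4.12 in replicate 1 only. NSMCE3 was the lowest, at 4.40 and 4.30, and NSMCE2 had no parental peak. CTCF, the DNA-binding protein that stops loop extrusion, had 15.6 and 16.8 with palbociclib and 5.40 in DMSO replicate 1 only.

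The germline subunits split by gene. SMC1B and REC8, which replace SMC1A and RAD21 in meiosis, had no peak in any parental list. STAG3 had 8.48 and 12.8 with palbociclib, at a peak that also lay on the promoter of the neighbouring gene GPC2. RAD21L1 had 10.7 and 11.8, with summits 154 and 89 bp upstream of its nearest TSS and no other protein-coding promoter under the peak.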

How the data were processed

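CUT&RUN peak lists of 7 ZR-75-1 libraries were analysed. Upstream, per the study's methods, BBDuk was used for trimming and Bowtie2 (2.3.4.1) for alignment to hg38; blacklisted and mitochondrial alignments were dropped and duplicates stayed in. The authors then ran MACS2 (2.2.7.1) on each library alone, for paired ends, against an IgG control and at a q-value cutoff of 0.05. Replicates were not pooled. The control of the IgG2a list is not given in the sources used here. The deposited fold enrichment is a ratio of pileup to local background at the summit, with a pseudocount of 1. The −log10 p and −log10 q values and the integer score were also deposited by the authors, and the score was not used.

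The fragment pileup and background at each summit were recovered as the whole number that gives both the deposited fold enrichment and −log10 p, tested on simulated data. Library depth is unknown. Peaks were assigned to promoters with GENCODE 44, and no peak on chromosomes 1 to 22 and X passed a chromosome end. Groups and replicates were taken from sample titles. Comparisons between the 2 DMSO and 2 palbociclib libraries used an exact two-sided permutation test over 6 splits. The 1-library RB1 KO and IgG2a groups have no test. Python 3.11.15, numpy 2.4.6 and scipy 1.17.1 were used.

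The member genes and the related lists were chosen with earlier results of these data known. All 10 members are named; of the related lists, the genes in both DMSO lists, the highest and lowest with palbociclib, and those with no palbociclib peak. SMC5, CTCF, MAU2, CDCA5, NCAPG2, STAG3 and RAD21L1 were, in part, named after their values were seen, as were the comparison with genes of like height and the shared starts. Alternatives changed the transcripts, the promoter window, the overlap, the thresholds, the list length, the measure of height, the TSS, the ranking, the motif window, the replicates and the replicate block. One item of the related lists is not reported here.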

Additional observations from a re-analysis of the deposited data

How the results depend on the processing

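Using protein-coding transcripts only, a promoter from 1000 bp upstream to 100 bp downstream, or the summit in place of any overlap, the same 9 genes were bound in both palbociclib lists and the same 3 in both DMSO lists. With a −log10 q or a fold enrichment of at least 5, PDS5B dropped out, leaving 8 and 3, and the difference between treatments was 5.5 genes. The shares over all protein-coding genes were then 26.9% and 1.61% with the −log10 q limit, and 27.2% and 2.04% with the fold enrichment limit. With lists cut to equal length, the difference was 0 and 1 gene, STAG1, was in both palbociclib lists; by construction this removes the difference in list length. Leaving out each library in turn gave differences of 6 to 7 genes, 9 to 10 genes with palbociclib and 3 to 3 with DMSO, log2 fold enrichment differences of 1.71 to 1.78 and width differences of 890.8 to 1012 bp. Measured as pileup, the log2 difference was 1.91, as pileup over the lowest background of the list 1.87, and with the peak nearest the TSS 1.86. The replicate block gave 6.5 genes and 1.75 on the log2 scale, each with an exact paired permutation p = 0.5, the smallest that 2 pairs allow. Deviations of replicate 1 from replicate 2 were barely correlated between treatments (r = 0.065 across 580 genes, which are not independent). This does not settle whether libraries of like number were paired, because a shared culture or preparation need not leave such a correlation. The median absolute distance of palbociclib summits was 74 bp to the nearest TSS and 140.75 bp to the canonical one, because fewer starts were allowed. The body peak in PDS5B fell under −log10 q of 5, leaving 0. With 200 bp to each side of the summit, an ETS site lay in 1 window (NIPBL), against 6.98% of all windows. CHR lay in 3 (RAD21 added), against 6.98%, and the SP/KLF box in 10, against 90.5%. E2F stayed at 3 and the NFY box at 6, while their shares over all windows rose to 11.8% and 39.9%. Groups of 2 libraries cannot reach a p-value under 0.333, and the number of fragments per library is unknown.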
